A study of Mus musculus with 24 samples.

Results

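Interferon response genes were followed through a mouse gut RNA sequencing series in which loss of the intestinal transcription factor Cdx2 was studied with and without a mutant Apc allele. The 39 genes were listed by name, with earlier results of these data known, out of 39179 genes counted. They comprised 4 transcription factors (Irf1, Irf7, Irf9, Stat2), 5 sensors of foreign nucleic acid (Ifih1, Ddx58, Dhx58, Zbp1, Eif2ak2), Isg15 with its protease Usp18, 6 members of the OAS family, 4 of the IFIT family, 6 restriction factors (Mx1, Mx2, Rsad2, Cmpk2, Bst2, Isg20), 3 guanylate-binding proteins, 3 genes of the PARP and DTX3L group and 6 other induced genes. All 39 were among the 20502 genes that passed the filter on low counts.

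Interferons are secreted signals of infection that act on neighbouring cells. Type I and type III interferons bind their receptors, the kinases of the JAK family are activated, and a complex that contains STAT2 and IRF9 enters the nucleus and binds a short DNA element, the interferon-stimulated response element, upstream of the induced genes. Many of the induced proteins are themselves sensors or regulators of the pathway, and in the gut a resting level of such genes in the epithelium is known to depend in part on signals from the microbiota.

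Tissue RNA from 8 groups was sequenced, with 3 libraries in each and between 36567685 and 87975179 gene reads per library. Mice of genotype Cdx2f/f::AhCreERT::ApcD14/+ gave the cecum and ileum groups named Cdx2-/-;Apc+/-, while Cdx2f/f::AhCreERT mice gave Cdx2-/- cecum, in a set 1 (replicates 1 to 3) and a set 2 (replicates 4 to 6). In these groups both Cdx2 alleles were floxed, CreERT was driven by the CYP1A1 (Ah) promoter, and the animals received tamoxifen and bnaphthoflavone. Cdx2+/- cecum, Apc+/- ileum, WT cecum and WT stomach were labelled as untreated. Of the Apc+/- ileum libraries, replicate 2 has the genotype entry ApcD14/+, while replicates 1 and 3 have Cdx2f/f::AhCreERT::ApcD14/+ although their descriptions call the Cdx2 allele non-floxed. No age was given. Treatment goes with the Cdx2-/- genotype, so the effects of each cannot be told apart. Nothing in the labels says that the libraries of a group are separate animals, so p-values here cover only library-to-library spread, which may be technical.

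Cdx2 itself was at 130.0 to 349 CPM (read counts scaled for library size and composition) in Cdx2-/- cecum, 122 to 151 in Cdx2-/-;Apc+/- cecum, 115 to 118 in Cdx2+/- cecum and 408 to 663 in WT cecum. In the ileum it was at 78.9, 178 and 36.9 CPM in the libraries labelled Cdx2-/-;Apc+/-, against 90.1, 63.3 and 112 CPM in Apc+/- libraries, so the labelled loss was not seen there. The Cdx2+/- cecum libraries held less Cdx2 than any Cdx2-/- cecum library, and their gastric markers summed to 31127 to 33142 CPM, against 4.83 to 1071 CPM in WT cecum. By Xist and Ddx3y, set 1 was female and the other groups male, so sex and set cannot be told apart. Sex therefore enters every comparison of Cdx2-/- cecum, taken as the mean of both sets, with another group. Set 1 replicates 2 and 3 were nearer to each other than any other pair of libraries in a group.

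In Cdx2-/- cecum, most of the interferon response genes were low. Compared with WT cecum, 29 of the 39 fell and 1, Isg20, rose in edgeR's quasi-likelihood test (adjusted p under 0.05, Benjamini-Hochberg), a test that called 26.2% of all genes lower and 26.9% higher. The median log2 difference was -2.16 over the 39 genes and 0.04 over the 20502 genes tested. Values of 21 members did not overlap between the 6 Cdx2-/- and the 3 WT libraries, all of them lower in Cdx2-/-, against 19.0% of all genes lower and 20.3% higher without overlap. Summed over the 39 genes, the level was 1232, 757 and 730.0 CPM in set 1 and 1484, 1198 and 2061 CPM in set 2, against 7892, 8072 and 3047 CPM in WT cecum. WT cecum replicate 3 was thus well below the other two WT libraries but above every Cdx2-/- library. Sex is mixed into this comparison through set 1, which was female while WT cecum was male. Set 2 alone, male like WT cecum, gave 17 members lower and 1 higher (24.4% and 25.8% of all genes). Because tissue RNA was sequenced in bulk, fewer cells of a type and less RNA per cell cannot be told apart.

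**Figure D1:**
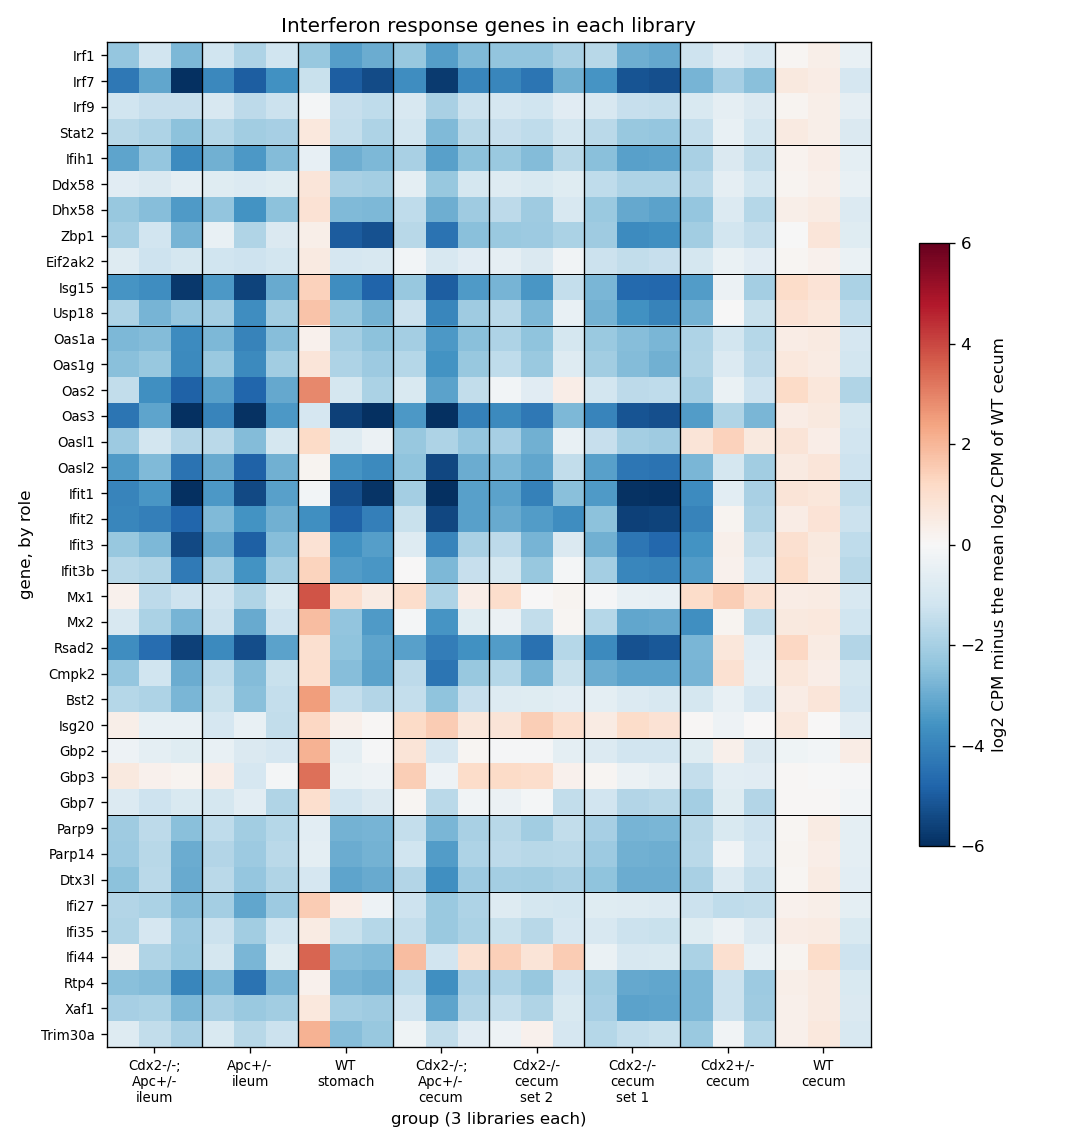
Level of each of the 39 interferon response genes in each of the 24 libraries, as log2 CPM minus the mean log2 CPM of the 3 WT cecum libraries, with genes down the page by role and libraries across by group. Most genes lie below WT cecum in the Cdx2-/- and Cdx2-/-;Apc+/- cecum and in both ileum groups, and WT stomach replicate 1 stands apart from the other 2 stomach libraries.

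All 4 transcription factors fell. Irf7 (ENSMUSG00000025498; GRCm38 chromosome 7, 141262706 to 141266481, minus strand) encodes the factor that amplifies type I interferon production. It was at 80.7, 26.5 and 24.7 CPM in set 1 and 62.0, 45.0 and 128 CPM in set 2, against 1411, 1289.9 and 469 CPM in WT cecum, so the highest Cdx2-/- library was below the lowest WT one. The difference was -4.17 ± 0.75 on the log2 scale, an 18.0-fold lower level (SE, n = 6 and 3, edgeR adjusted p = 1.21e-04). Irf1, a factor induced by all interferon types, was at 109, 43.8 and 40.2 CPM in set 1 and 65.8, 66.4 and 88.7 CPM in set 2, against 367, 429 and 249.6 CPM in WT cecum (-2.34 ± 0.34, edgeR adjusted p = 1.29e-05). These groups did not overlap either. The other two, Stat2 (-1.81 ± 0.42) and Irf9 (-1.15 ± 0.27), encode parts of the complex that carries the type I response to DNA and fell by less.

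The sensors fell in 5 of 5 cases. Ifih1, whose product MDA5 binds long double-stranded RNA, was at 50.6, 30.0 and 31.8 CPM in set 1 and 62.3, 48.3 and 91.0 CPM in set 2, against 330.5, 386 and 192 CPM in WT cecum (-2.59 ± 0.45, edgeR adjusted p = 7.95e-05). Dhx58, whose product LGP2 modulates that of Ifih1, was at 11.4, 6.27 and 5.83 CPM in set 1 and 18.1, 12.2 and 27.8 CPM in set 2, against 68.3, 74.3 and 29.9 CPM in WT cecum (-2.22 ± 0.59, edgeR adjusted p = 0.00379). Neither gene's groups overlapped, although set 2 replicate 6 came close to WT replicate 3 for Dhx58. Zbp1, a sensor of Z-form nucleic acid, was at -2.66 ± 0.82, Ddx58, which encodes RIG-I, at -1.30 ± 0.43, and the double-stranded RNA kinase gene Eif2ak2 at -0.96 ± 0.27. Without WT replicate 2, Zbp1 (-2.21, edgeR adjusted p = 0.0573) and Ddx58 (-1.14, 0.0751) were not called, and without WT replicate 1 Ddx58 was not called (-1.24, 0.0541). With total gene read scaling neither Ddx58 (-0.83, edgeR adjusted p = 0.107) nor Eif2ak2 (-0.50, 0.103) was called.

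Isg15, a ubiquitin-like protein that is conjugated to other proteins, and Usp18, the protease that removes it and dampens receptor signalling, both fell. Isg15 was at 18.8, 5.03 and 4.86 CPM in set 1 and 18.4, 11.4 and 46.8 CPM in set 2, against 270.1, 225 and 34.2 CPM in WT cecum (-3.49 ± 1.01, edgeR adjusted p = 0.00689). Usp18 was at 7.71, 4.51 and 3.50 CPM in set 1 and 18.0, 8.59 and 40.5 CPM in set 2, against 102, 89.9 and 19.2 CPM in WT cecum (-2.70 ± 0.81, edgeR adjusted p = 0.00876). For both genes set 2 replicate 6 lay above WT replicate 3, and the groups overlapped. The same pair of libraries crossed for the other 6 genes called lower whose groups overlapped, Eif2ak2, Oas1g, Oasl1, Ifit3, Ifit3b and Rsad2.

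The OAS genes, which encode synthases of the short adenylates that switch on RNase L, or related proteins without that activity, fell in 5 of 6 cases. Oas3 had 24.3, 10.6 and 9.87 CPM in set 1 and 27.3, 19.5 and 58.3 CPM in set 2, against 520.5, 579 and 187 CPM in WT cecum (-4.23 ± 0.91, edgeR adjusted p = 6.66e-04), the lowest log2 difference among the 39. Oas1a had 30.9, 24.6 and 22.1 CPM in set 1 and 40.3, 27.4 and 71.4 CPM in set 2, against 203, 212 and 73.4 CPM in WT cecum (-2.23 ± 0.50, edgeR adjusted p = 9.33e-04). Both stood apart without overlap, Oas1a by a narrow margin. Oasl2 was at -3.31 ± 0.77, Oas1g at -2.12 ± 0.57 and Oasl1 at -1.81 ± 0.48, while Oas2 (-1.19 ± 0.83, edgeR adjusted p = 0.240) was not called. Oas1a and Oas1g are close copies of each other on chromosome 5, where all 6 lie, and reads of one could be counted for the other or left out.

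The IFIT genes, whose products bind foreign RNA and hold back its translation, fell in 4 of 4 cases. Ifit1 was at 26.0, 4.54 and 4.40 CPM in set 1 and 29.6, 16.5 and 48.6 CPM in set 2, against 474, 438 and 100.2 CPM in WT cecum (-4.13 ± 1.05, edgeR adjusted p = 0.00270). Ifit2 was at 25.1, 2.77 and 2.94 CPM in set 1 and 16.9, 13.4 and 10.5 CPM in set 2, against 188, 242 and 57.0 CPM in WT cecum (-3.77 ± 0.79, edgeR adjusted p = 5.51e-04). In set 1, replicate 1 was the highest library for both genes, several times above replicates 2 and 3. Ifit3 (-2.99 ± 0.95) and its near-identical copy Ifit3b (-2.34 ± 0.94, edgeR adjusted p = 0.0438) can exchange reads. Without WT replicate 1 neither was called (-2.52, edgeR adjusted p = 0.0600, and -1.78, 0.187), and Ifit3b also lost its call without WT replicate 2 (-2.25), set 1 replicate 2 (-2.19) or 3 (-2.17), or set 2 replicate 4 (-2.30) or 5 (-2.14).

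The restriction factors were divided. Rsad2, which encodes viperin, an enzyme that makes a chain-terminating nucleotide, was at 7.44, 2.88 and 3.16 CPM in set 1 and 10.4, 4.87 and 32.6 CPM in set 2, against 252, 152 and 31.9 CPM in WT cecum (-4.10 ± 0.84, edgeR adjusted p = 4.43e-04). Its neighbour Cmpk2 on chromosome 12, a nucleotide kinase, was at 6.88, 5.68 and 5.80 CPM in set 1 and 16.2, 7.67 and 21.2 CPM in set 2, against 85.1, 70.1 and 25.7 CPM in WT cecum (-2.65 ± 0.77, edgeR adjusted p = 0.00730). These were the restriction factors that fell. The GTPase genes Mx1 (-0.05 ± 0.62) and Mx2 (-1.68 ± 0.90) and the tether of budding virus Bst2 (-0.94 ± 0.62) were not called. A fit of only the compared groups called Mx2 (-1.61, edgeR adjusted p = 0.0228) and Bst2 (-0.88, 0.0391) lower.

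Isg20, an exonuclease gene, was the only member called higher. It was at 12.6, 19.2 and 16.7 CPM in set 1 and 15.4, 25.4 and 18.2 CPM in set 2, against 14.1, 9.10 and 5.82 CPM in WT cecum (0.89 ± 0.32, edgeR adjusted p = 0.0277). The groups overlapped at set 1 replicate 1 and WT replicate 1. The call was lost without WT replicate 2 (0.85, edgeR adjusted p = 0.0881), WT replicate 3 (0.62, 0.142), set 1 replicate 2 (0.82, 0.0531) or set 2 replicate 5 (0.78, 0.0594).

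None of the 3 guanylate-binding proteins, large GTPases that respond mainly to interferon-gamma, was called by edgeR (1 at an unadjusted p under 0.05, and 1, Gbp7, by DESeq2). Gbp7 was at 13.1, 8.36 and 9.08 CPM in set 1 and 22.4, 26.8 and 10.3 CPM in set 2, against 30.4, 30.4 and 25.1 CPM in WT cecum (-1.01 ± 0.43, edgeR adjusted p = 0.0564). Gbp2 was at 11.5, 9.18 and 9.23 CPM in set 1 and 19.2, 19.6 and 13.4 CPM in set 2, against 16.9, 18.2 and 27.5 CPM in WT cecum (-0.66 ± 0.44, edgeR adjusted p = 0.213). Gbp7 was called lower without set 2 replicate 5 (-1.15, edgeR adjusted p = 0.0453) and with RLE scaling (-1.04, 0.0475). A fit of only the compared groups called Gbp7 (-0.97, edgeR adjusted p = 0.0151) and Gbp2 (-0.63, 0.0294) lower. Gbp3 was at 0.31 ± 0.60, so the 3 genes, which lie together on chromosome 3 and share long stretches of sequence, did not share a sign.

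The ADP-ribosyltransferase genes Parp9 and Parp14 and the ubiquitin ligase gene Dtx3l, whose product binds that of Parp9, fell in 3 of 3 cases. Dtx3l was at 47.0, 31.4 and 31.5 CPM in set 1 and 60.1, 57.9 and 64.4 CPM in set 2, against 268, 354 and 160.4 CPM in WT cecum (-2.47 ± 0.43, edgeR adjusted p = 9.96e-05). Parp9 was at 53.3, 30.7 and 31.6 CPM in set 1 and 68.2, 49.4 and 75.8 CPM in set 2, against 229, 296 and 142 CPM in WT cecum (-2.16 ± 0.39, edgeR adjusted p = 1.37e-04). Parp14 differed by -2.17 ± 0.47, and the groups of all 3 genes stood apart.

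Of the other induced genes 4 of 6 fell. The proapoptotic gene Xaf1 was at 13.4, 5.73 and 5.92 CPM in set 1 and 19.7, 15.2 and 28.0 CPM in set 2, against 66.2, 77.9 and 29.6 CPM in WT cecum (-2.13 ± 0.52, edgeR adjusted p = 0.00201). Rtp4, which encodes a transport protein of membrane receptors, was at 18.1, 9.32 and 8.82 CPM in set 1 and 21.7, 16.3 and 35.1 CPM in set 2, against 100.1, 115 and 41.3 CPM in WT cecum (-2.31 ± 0.61, edgeR adjusted p = 0.00357). Both were below WT in every Cdx2-/- library. Ifi35 was at -1.38 ± 0.39 and Ifi27 at -0.93 ± 0.31, and Ifi27 was not called without WT replicate 1 (-0.82, edgeR adjusted p = 0.0751) or 2 (-0.76, 0.0991). Ifi27 was also not called with total gene read scaling (-0.45, 0.197). Trim30a (-1.02 ± 0.70) and Ifi44 (-0.01 ± 0.99) were not called, although a fit of only the compared groups called Trim30a lower (-0.96, edgeR adjusted p = 0.0373).

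**Figure D2:**
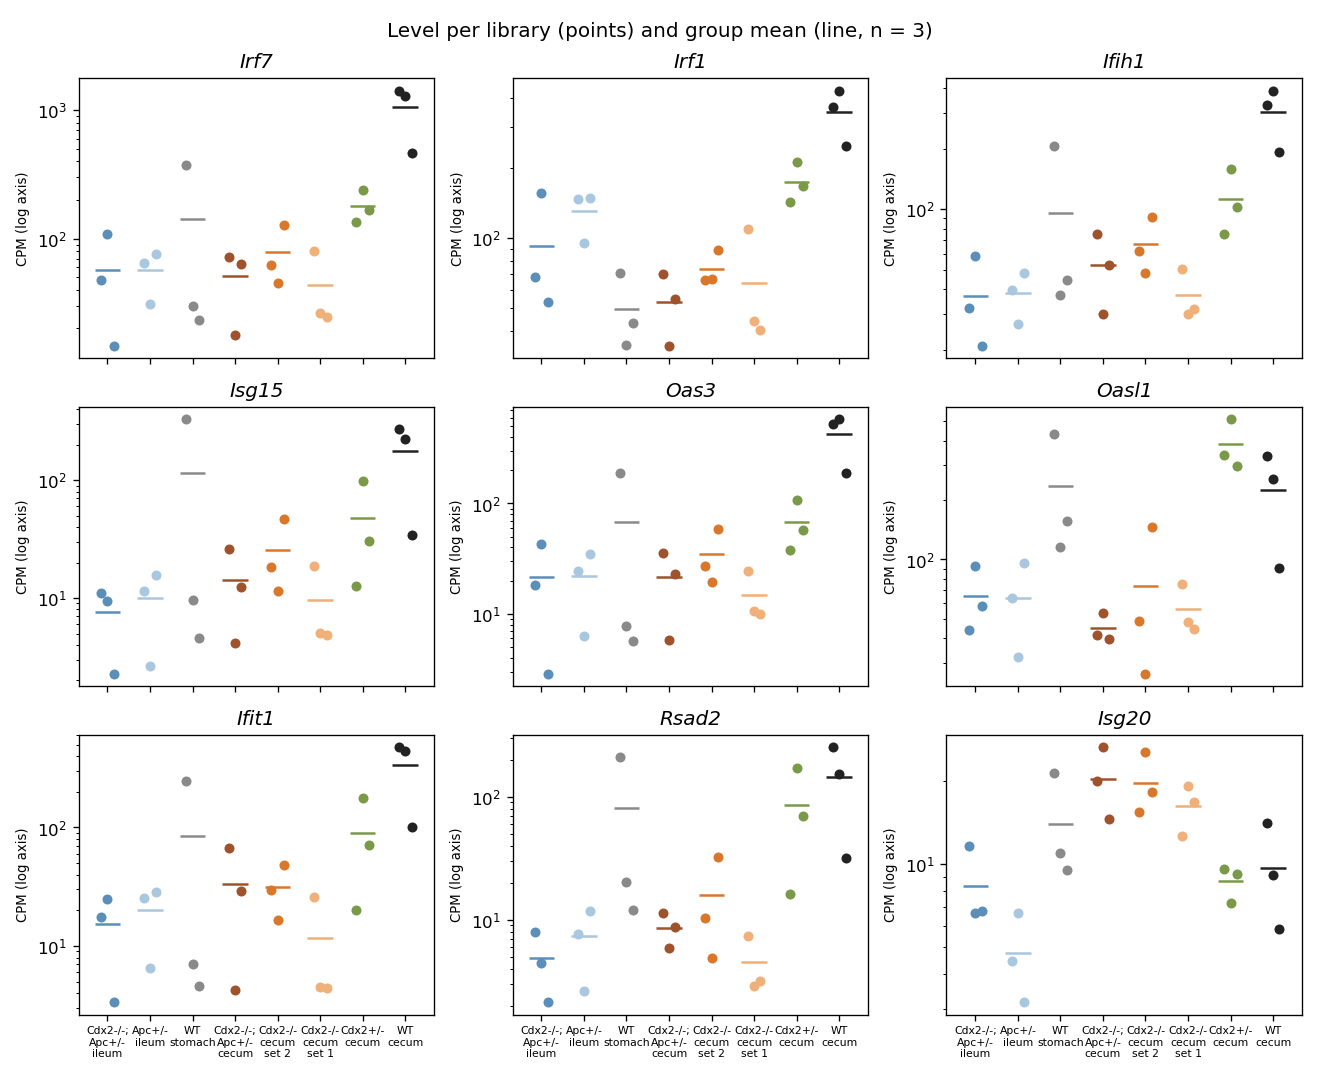
CPM on a log axis of 9 interferon response genes in every library, 1 panel per gene, with groups from left to right and the group mean as a line. Irf7 and Oas3 are lower in every Cdx2-/- and Cdx2-/-;Apc+/- cecum library than in every WT cecum library, Oasl1 in the Cdx2+/- cecum (299 to 513 CPM) is at the level of WT cecum or above it, and Isg20 runs the other way.

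All members were above the limit of counting, since 3 reads were worth 0.0326 to 0.0795 CPM and the lowest member value in any library was 0.673 CPM, for Mx2. Per kilobase of exon, the levels in WT cecum were led by Irf7 (279.9 ± 136 CPM per kb, SD, n = 3), Isg15 (233 ± 166) and Ifit1 (127 ± 77.7), followed by Irf1 (87.6 ± 22.9) and Oasl1 (86.8 ± 47.6). The first pair differed by less than their spread, as did Irf1 and Oasl1. At the low end were Mx2 (2.92 ± 1.60) and Ifi44 (2.53 ± 1.79), also within their spread of each other.

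Promoter sequence was examined to describe the members. They were chosen as interferon response genes, so an excess of the interferon-stimulated response element could follow from that choice alone. Its presence does not say why the members moved together. A window from 250 bases before to 50 bases after the transcription start was at hand for 29 of the 39 genes, from RefSeq on GRCm38.p6. There was none for Dhx58, Zbp1, Usp18, Oas2, Mx1, Mx2, Parp9, Parp14, Ifi27 and Rtp4. The core of the interferon-stimulated response element, GAAA and again GAAA with any 2 bases between them, on either strand (TTTC and TTTC when read on the other), was present in 17 of the 29 genes (58.6%), against 1079 of 27025 genes with a window (3.99%). With a C required after it, it was present in 15 (51.7%), against 255 of 27025 (0.944%), and with 1 mismatch allowed in 27 (93.1%), against 10508 (38.9%). Matches can overlap each other, and close copies such as Ifit3 and Ifit3b or Oas1a and Oas1g were counted as separate genes. The letters were absent from the windows of Irf1, Irf7, Irf9, Oasl1, Oasl2, Ifit2, Cmpk2, Isg20, Dtx3l, Ifi35, Ifi44 and Xaf1, which says only that these windows do not hold them.

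The 150 bases before the start are shown for 6 genes with a match, namely Isg15, Oas3, Oas1a, Ifit1 and Rsad2, which fell, and Gbp2, which was not called, and for Irf7, which fell without one. Capitals mark the matched letters. The stretches are chr4:156200819-156200968 for Isg15 (minus strand), with 3 overlapping matches, chr5:120777660-120777809 for Oas3 (minus strand), chr5:120907526-120907675 for Oas1a (minus strand), with 2 overlapping matches, chr19:34640739-34640888 for Ifit1 (plus strand), chr12:26456453-26456602 for Rsad2 (minus strand), chr3:142620513-142620662 for Gbp2 (plus strand) and chr7:141266425-141266574 for Irf7 (minus strand), each written 5′ to 3′ in the direction of the gene.
Isg15: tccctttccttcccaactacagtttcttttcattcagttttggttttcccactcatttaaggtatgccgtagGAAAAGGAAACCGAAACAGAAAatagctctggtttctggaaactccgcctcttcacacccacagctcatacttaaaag
Oas3: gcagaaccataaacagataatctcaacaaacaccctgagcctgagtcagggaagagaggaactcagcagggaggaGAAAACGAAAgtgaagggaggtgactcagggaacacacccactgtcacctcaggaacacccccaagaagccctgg
Oas1a: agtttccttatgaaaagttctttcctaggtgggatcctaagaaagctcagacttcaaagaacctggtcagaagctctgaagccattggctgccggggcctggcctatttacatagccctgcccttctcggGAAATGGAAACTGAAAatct
Ifit1: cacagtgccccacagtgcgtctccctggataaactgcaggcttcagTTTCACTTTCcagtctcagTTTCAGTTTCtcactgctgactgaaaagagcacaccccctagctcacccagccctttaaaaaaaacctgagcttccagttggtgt
Rsad2: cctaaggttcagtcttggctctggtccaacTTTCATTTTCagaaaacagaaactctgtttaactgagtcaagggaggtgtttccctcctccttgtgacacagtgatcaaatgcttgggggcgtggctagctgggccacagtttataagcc
Gbp2: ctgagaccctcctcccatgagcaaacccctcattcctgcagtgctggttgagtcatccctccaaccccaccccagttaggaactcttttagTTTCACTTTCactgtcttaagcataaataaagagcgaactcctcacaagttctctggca
Irf7: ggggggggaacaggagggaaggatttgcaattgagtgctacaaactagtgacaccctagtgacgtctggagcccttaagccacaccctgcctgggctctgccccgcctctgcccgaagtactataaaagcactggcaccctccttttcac
The runs differ in where the letters lie. In Oas1a they sit within the last bases before the start, in Isg15 and Oas3 about midway, and in Ifit1 they form 2 separate copies. Gbp2 carries them as well, so in this small set they were found beside genes that were and were not called.

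The sets were then compared one by one with WT cecum. Set 1 alone gave 29 members lower and none higher by edgeR (22.7% and 24.6% of all genes, 0 higher at an unadjusted p under 0.05 and 0 by DESeq2), with a median of -2.67, and 33 members lower without overlap (26.3% of all genes lower and 29.7% higher). Set 2 alone gave 17 lower and 1 higher (24.4% and 25.8%), with a median of -1.58, and 21 members lower and 2 higher without overlap (26.0% and 27.3%). The count for set 2 fell to 6 without set 2 replicate 5, 9 without set 2 replicate 4, 9 without WT replicate 1 and 8 without WT replicate 2. Rsad2 was at -5.01 ± 1.16 in set 1 and -3.19 ± 1.06 in set 2, and Oas3 at -4.84 ± 1.24 and -3.61 ± 1.17. Both comparisons use the same WT libraries. Set 1 was female and WT cecum male by Xist and Ddx3y, so sex and genotype cannot be told apart in the set 1 comparison. With the close replicates 2 and 3 of set 1 summed, 23 members were lower in set 1.

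Set 2 against set 1 was tested itself, and none of the 39 genes was called by edgeR (4.03% of all genes called higher and 6.45% lower). At an unadjusted p under 0.05, 1 was higher and 0 were lower, and DESeq2 called the same numbers. The median was 0.96, with 37 of 39 values positive. Values of 18 members were higher in set 2 without overlap, against 16.2% of all genes higher and 18.4% lower. Eif2ak2 had the smallest adjusted p, with 82.9, 65.9 and 104 CPM in set 2, against 48.4, 43.2 and 45.7 CPM in set 1 (0.88 ± 0.32, edgeR adjusted p = 0.0853). Ifi44 was at 34.6, 21.5 and 36.4 CPM in set 2, against 9.75, 6.57 and 6.69 CPM in set 1 (2.01 ± 1.19, edgeR adjusted p = 0.297). Sex separates the same libraries, so set and sex cannot be told apart here.

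Cdx2-/-;Apc+/- cecum, which adds the ApcD14 allele, gave 25 members lower and 1 higher than WT cecum (26.1% and 26.6% of all genes), with a median of -2.04. Without overlap 26 were lower and 1 higher (27.0% and 28.5% of all genes). Irf7 was at 71.4, 17.7 and 63.5 CPM in Cdx2-/-;Apc+/- cecum, against 1411, 1289.9 and 469 CPM in WT cecum (-4.38 ± 1.00, edgeR adjusted p = 0.00120). Oas3 was at 35.6, 5.80 and 23.1 CPM, against 520.5, 579 and 187 CPM in WT cecum (-4.32 ± 1.21), and Rsad2 at 11.3, 5.94 and 8.68 CPM, against 252, 152 and 31.9 CPM (-4.07 ± 1.11). No library of these groups overlapped for the 3 genes. Irf1 (-2.71 ± 0.44), Ifih1 (-2.52 ± 0.57), Isg15 (-3.63 ± 1.32), Ifit1 (-3.34 ± 1.33), Ifit2 (-2.77 ± 0.99), Dtx3l (-2.41 ± 0.55), Parp9 (-2.01 ± 0.49), Oas1a (-2.69 ± 0.64) and Xaf1 (-1.92 ± 0.65) fell too. Isg20 was the gene that rose, with 19.9, 26.4 and 14.6 CPM in Cdx2-/-;Apc+/- cecum, against 14.1, 9.10 and 5.82 CPM in WT cecum (1.07 ± 0.36, edgeR adjusted p = 0.0188). Its call was lost without WT replicate 2 or 3 or Cdx2-/-;Apc+/- replicate 2. The members not called were Ddx58, Eif2ak2, Usp18, Oas2, Ifit3, Ifit3b, Mx1, Mx2, Gbp2, Gbp3, Gbp7, Ifi44 and Trim30a. Bst2, which was not called in Cdx2-/- cecum, fell (17.1, 8.69 and 17.7 CPM, below every WT cecum library, -1.88 ± 0.76). Without WT replicate 2, or without Cdx2-/-;Apc+/- replicate 2, 16 were called lower.

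Replicate 2 of Cdx2-/-;Apc+/- cecum was the lowest library of its group, with a summed level of 579.6 CPM beside 1750.0 and 1177 CPM in the other two. Set directly against Cdx2-/- cecum, Cdx2-/-;Apc+/- cecum gave no member call by edgeR in either direction (3.93% of all genes higher and 4.50% lower), 0 higher and 1 lower at an unadjusted p under 0.05, and 0 by DESeq2. The median was 0.07. Irf7 differed by -0.21 ± 0.76, Oas3 by -0.09 ± 0.92, Rsad2 by 0.03 ± 0.86 and Ifit1 by 0.79 ± 1.03. Only Ifi27 (50.5, 25.2 and 32.9 CPM in Cdx2-/-;Apc+/- cecum, against 55.7 to 71.5 CPM in Cdx2-/- cecum) and Bst2 separated the libraries without overlap, both lower (4.40% of all genes lower and 4.23% higher). SEs near 1 on the log2 scale leave differences of a few fold undetectable for such genes.

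**Figure D3:**
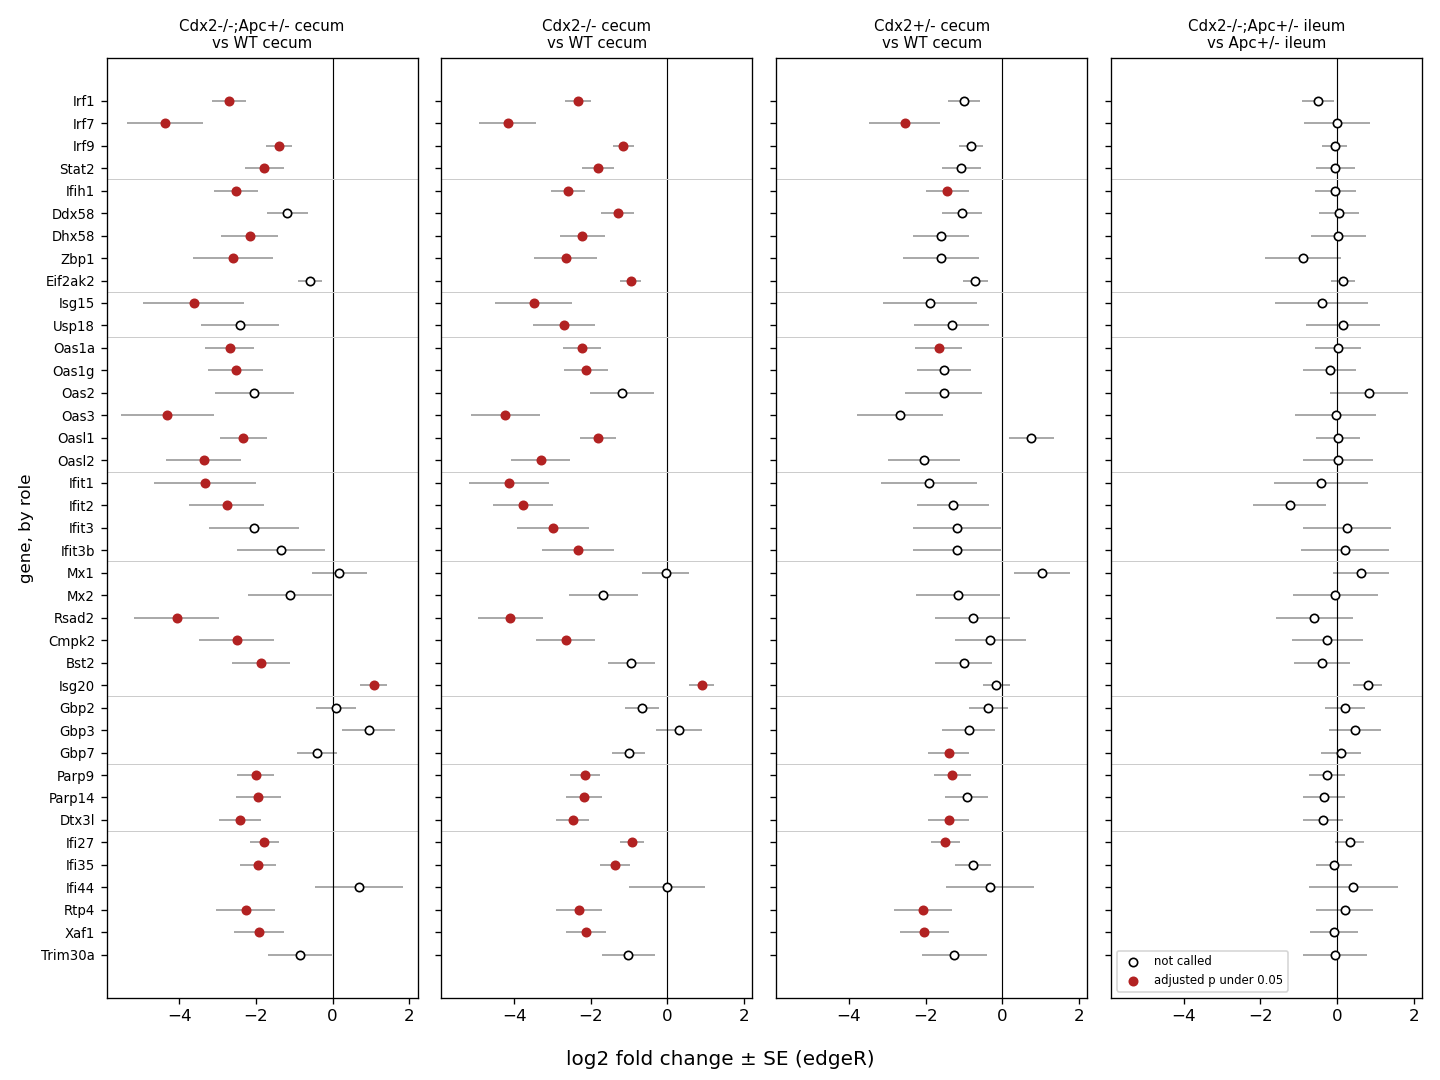
Log2 difference of each of the 39 members with its SE (bars) in 4 comparisons, with members called at an edgeR adjusted p under 0.05 in red. In Cdx2-/-;Apc+/- and in Cdx2-/- cecum most members lie left of 0 with Isg20 to its right, the Cdx2+/- cecum lies between, and in the ileum the values scatter around 0 with none called.

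Cdx2+/- cecum, from untreated animals, gave 9 members lower and none higher than WT cecum by edgeR (17.3% and 17.1% of all genes, with 0 higher at an unadjusted p under 0.05 and 0 by DESeq2), so the share of members called was not far above that of all genes, and the median was -1.25. Without overlap 15 were lower and 1 higher (23.9% and 24.1%). Irf7 was at 135, 241 and 166 CPM in Cdx2+/- cecum, against 1411, 1289.9 and 469 CPM in WT cecum (-2.55 ± 0.92, edgeR adjusted p = 0.0378). Ifih1 was at 75.2, 158 and 103 CPM, against 330.5, 386 and 192 CPM in WT cecum (-1.43 ± 0.55, edgeR adjusted p = 0.0485). The groups did not overlap for either gene. Oas1a (-1.66 ± 0.61), Gbp7 (-1.40 ± 0.53), Parp9 (-1.30 ± 0.48), Dtx3l (-1.40 ± 0.53), Ifi27 (-1.49 ± 0.38), Rtp4 (-2.06 ± 0.76) and Xaf1 (-2.03 ± 0.65) were the other members called lower. Leaving out WT replicate 1 or 2, or Cdx2+/- replicate 1 or 3, left 1 call, that of Ifi27.

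Cdx2+/- replicate 2 was the highest library of its group for most of the induced genes. Isg15 was at 12.6, 99.1 and 30.6 CPM, Ifit2 at 8.53, 152 and 39.3 CPM and Cmpk2 at 7.75, 101 and 36.5 CPM in Cdx2+/- cecum, which overlapped the WT cecum values for each of these genes. Oasl1 departed from the others, with 338, 513 and 299 CPM in Cdx2+/- cecum, against 333, 255 and 90.1 CPM in WT cecum (0.76 ± 0.58, edgeR adjusted p = 0.336). Mx1 was at 28.1, 35.9 and 24.6 CPM in Cdx2+/- cecum, above every WT cecum library (18.0, 18.2 and 6.79 CPM), and was not called either (1.05 ± 0.73, edgeR adjusted p = 0.284). All 7 smooth muscle markers fell here too, with summed levels of 231 to 706 CPM, against 1403 to 4387 CPM in WT cecum. Enteric nerve and glia markers fell in 5 of 7, with overlapping summed levels (15.8 to 22.2 CPM, against 11.7 to 40.7 CPM). Squamous keratinocyte markers rose in 6 of 6 cases, unevenly between libraries (20.6 to 755 CPM, against 1.23 to 4.29 CPM in WT cecum). Of all genes, 17.3% were called lower and 17.1% higher in this comparison. The part of such differences in tissue make-up in the interferon gene values was not tested.

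Cdx2-/- cecum against Cdx2+/- cecum gave 7 members lower and 1 higher (20.6% and 19.7% of all genes), and 4 lower and 3 higher without overlap (18.4% and 19.3%). The shares of members called, 17.9% lower and 2.6% higher, were thus below those of all genes, as were the shares without overlap. Oasl1 fell, with 26.4 to 146 CPM in Cdx2-/- cecum, against 299 to 513 CPM in Cdx2+/- cecum (-2.57 ± 0.49, edgeR adjusted p = 6.14e-04). Rsad2 was at 2.88 to 32.6 CPM in Cdx2-/- cecum, against 16.2, 170.0 and 69.4 CPM in Cdx2+/- cecum (-3.33 ± 0.83, edgeR adjusted p = 0.00431). The Oasl1 values did not overlap, and those of Rsad2 did. Irf1 (-1.34 ± 0.34), Ifih1 (-1.16 ± 0.45), Ifit2 (-2.49 ± 0.78), Cmpk2 (-2.34 ± 0.77) and Parp14 (-1.24 ± 0.47) fell and Isg20 rose (1.04 ± 0.33, edgeR adjusted p = 0.0172). Without Cdx2+/- replicate 2, 2 were lower, Irf1 and Oasl1, and Isg20 was not called. Irf7 was at -1.62 ± 0.72 (edgeR adjusted p = 0.0806).

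The ileum comparison set libraries labelled Cdx2-/-;Apc+/- against Apc+/-. No member was called by edgeR in either direction, where 0.395% of all genes were called higher and 0.0488% lower. At an unadjusted p under 0.05, 1 was higher and 0 were lower, and DESeq2 called 0. Irf7 was at 47.9, 109 and 14.7 CPM in the libraries labelled Cdx2-/-;Apc+/-, against 65.1, 31.1 and 76.1 CPM in Apc+/- libraries (-0.00 ± 0.87). Oas3 was at 18.4, 43.1 and 2.87 CPM, against 24.7, 6.33 and 34.9 CPM in Apc+/- libraries (-0.03 ± 1.06). Irf1 was at 67.8, 156 and 52.9 CPM, against 147, 94.9 and 149 CPM in Apc+/- libraries (-0.50 ± 0.41). The groups overlapped for each of these genes. Ifit2 was the only member without overlap, lower (4.93% of all genes lower and 6.25% higher), at 9.24, 8.04 and 5.04 CPM, against 22.2, 11.6 and 18.8 CPM in Apc+/- libraries (-1.24 ± 0.95). Summed over the members, the level was 1044, 1338 and 659 CPM, against 1277, 758 and 1299.5 CPM in Apc+/- libraries.

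Both ileum groups were thus near the low level of the Cdx2-/- and Cdx2-/-;Apc+/- cecum. The libraries labelled Cdx2-/-;Apc+/- ileum differed from Cdx2-/-;Apc+/- cecum in 1 member, Isg20. It was at 11.6, 6.67 and 6.75 CPM in ileum, against 19.9, 26.4 and 14.6 CPM in cecum, without overlap (-1.29 ± 0.37, edgeR adjusted p = 0.0224). Of all genes, 6.60% were called lower and 9.59% higher, and 14.4% were lower and 15.7% higher without overlap. The shares of members called, 2.6% lower and 0.0% higher, were thus below those of all genes. Isg20 was not called without cecum replicate 1 or 2 or ileum replicate 2 or 3. Against WT cecum, Apc+/- ileum had 28 members lower and none higher by edgeR (27.2% and 28.1% of all genes, 0 higher at an unadjusted p under 0.05 and 0 by DESeq2), with a median of -1.96, and 32 lower without overlap (28.5% and 30.5%). Tissue and Apc allele go together there and cannot be told apart. Irf7 was at 65.1, 31.1 and 76.1 CPM in Apc+/- ileum, against 1411, 1289.9 and 469 CPM in WT cecum (-4.20 ± 0.99), and Ifi27 at 29.0, 13.8 and 26.1 CPM, against 141, 152 and 78.9 CPM (-2.43 ± 0.39, edgeR adjusted p = 3.93e-05).

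WT stomach against WT cecum gave 8 members lower and 2 higher (21.6% and 22.1% of all genes), and 6 lower and 1 higher without overlap (25.2% and 26.2%). The shares of members called, 20.5% lower and 5.1% higher, were thus below those of all genes, as were the shares without overlap. A single stomach library stood apart. Replicate 1 was above both other stomach libraries for all 39 members, against 34.6% of all genes, and at least 4-fold above both for 30 of them, against 2.49% of all genes (510 of 20502). Isg15 was at 329 CPM in replicate 1, against 9.71 and 4.55 CPM in replicates 2 and 3, and Irf7 at 373 CPM, against 30.1 and 23.2 CPM. Ifi44 had the widest gap, 67.6-fold over the mean of the other two, followed by Isg15 (46.2-fold), Zbp1 (45.0-fold) and Ifit1 (41.8-fold). At the other end, Ifit2 was at 10.6 CPM in replicate 1, against 4.75 and 8.04 CPM, a 1.65-fold gap, Irf1 showed a 1.82-fold and Isg20 a 2.07-fold gap. The antigen-presentation activator Nlrc5 was at 83.3 CPM in replicate 1, against 5.18 and 6.55 CPM in the other two. Summed T cell markers were at 7.02 CPM in replicate 1, against 6.38 and 6.97 CPM, and those of intraepithelial lymphocytes and NK cells at 2.56 CPM, against 1.59 and 1.86 CPM. Some other lists spread more widely among the stomach libraries. Summed smooth muscle markers were at 2391 to 7008 CPM, B and plasma cell markers at 18.2 to 46.1 CPM and squamous keratinocyte markers at 1.32 to 23.8 CPM. The part of tissue make-up in the values of replicate 1 was not tested.

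Irf1, Irf7, Irf9, Ifih1, Ifit2, Parp9, Parp14 and Dtx3l were the members called lower in WT stomach, and Mx1 (2.39 ± 0.75) and Gbp3 (1.94 ± 0.70) those called higher. Mx1 was at 181, 26.4 and 18.4 CPM in WT stomach, against 18.0, 18.2 and 6.79 CPM in WT cecum, and Gbp3 at 136, 10.2 and 10.9 CPM, against 14.4, 13.5 and 13.1 CPM. Both increases came with replicate 1. Without it 31 members were lower and none higher, and Mx1 was at 0.65 (edgeR adjusted p = 0.433). Leaving out stomach replicate 2 or 3 gave 4 lower, and WT cecum replicate 2 gave 5. The number called higher was 1 without WT cecum replicate 1 or 2 and 0 without replicate 3.

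**Figure D4:**
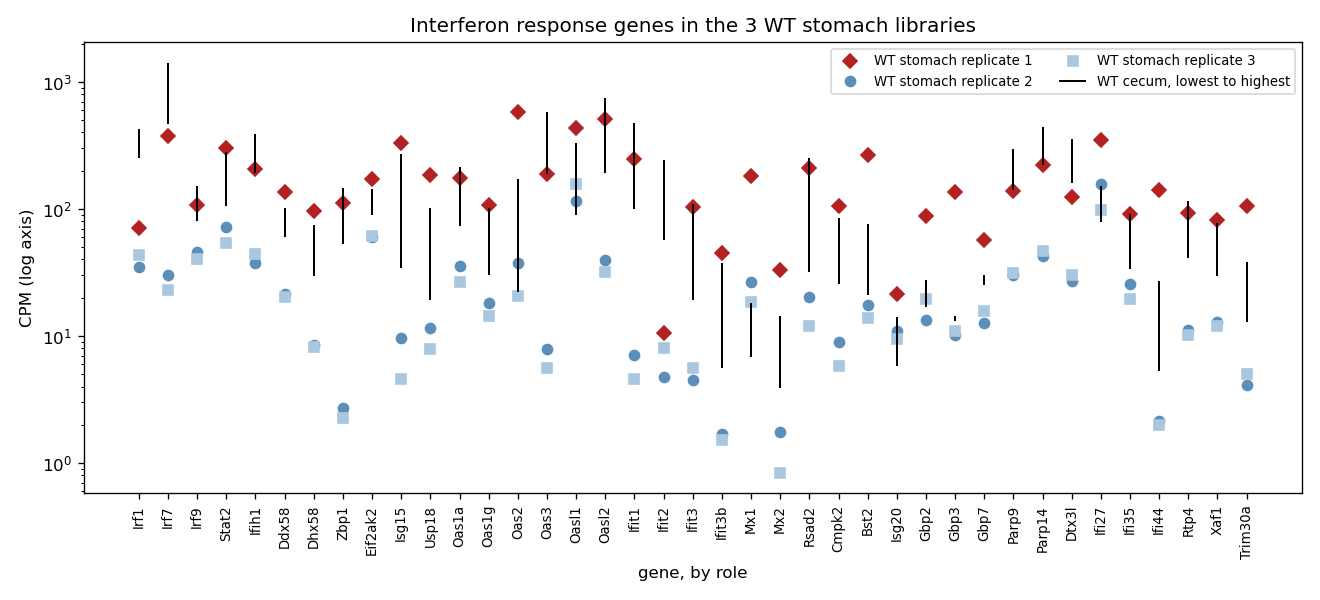
CPM on a log axis of each of the 39 members in the 3 WT stomach libraries (points), with the range of the 3 WT cecum libraries as a bar. Replicate 1 lies above replicates 2 and 3 for every gene, from 1.65-fold for Ifit2 to 67.6-fold for Ifi44 over their mean.

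Whether the cecum and ileum differences differ was tested as an interaction, the Cdx2-/-;Apc+/- minus WT difference in the cecum less the Cdx2-/-;Apc+/- minus Apc+/- difference in the ileum. It gave 10 members lower and none higher by edgeR (18.3% and 16.4% of all genes, 0 higher at an unadjusted p under 0.05 and 0 by DESeq2), with a median of -1.86. That count, 10 of 39, is a share not far above that of all genes. The WT cecum carries no Apc mutation while both ileum groups do, and the ileum libraries go against their Cdx2 labels. The count was 5 without WT cecum replicate 1, 4 without WT cecum replicate 2, 16 without WT cecum replicate 3, 5 and 6 without Cdx2-/-;Apc+/- cecum replicate 2 or 3, 5 without the library labelled Cdx2-/-;Apc+/- ileum replicate 2, and 6 and 4 without Apc+/- ileum replicate 1 or 2.

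Across all 24 libraries the members varied together. The Pearson correlation of a member's log2 CPM with the mean of the other members had a median of 0.90 and was over 0.8 for 25 of 39, and the Spearman correlation had a median of 0.84. With each group's mean taken out, the median was 0.94 and 33 were over 0.8. Before that step the lowest Pearson values were 0.06 for Isg20 and 0.43 for Gbp3. These are descriptions over libraries that share groups and scaling factors. WT stomach replicate 1, which stood above both other stomach libraries for all 39 members, enters these correlations. They were not computed without that library or for other sets of genes.

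The genes upstream of the members were examined from lists of the pathway, whose counts stand against 26.2% of all genes called lower and 26.9% higher. In Cdx2-/- cecum against WT cecum, 5 of 6 interferon receptor chains fell and none rose, with Ifngr2, a chain of the interferon-gamma receptor, at -1.60 ± 0.19, the type I chain Ifnar1 at -0.81 ± 0.11 and the type III chain Ifnlr1 at -1.25 ± 0.20. Among 7 feedback inhibitors the cytokine-signalling suppressor Socs3 rose (2.54 ± 0.41, edgeR adjusted p = 4.33e-05) and Pias1 fell. Of 12 adaptors, 4 fell, among them the kinase Tbk1 (-1.29 ± 0.14) and the adaptor Ticam1 (-1.34 ± 0.23), and 2 rose, among them Tmem173, which encodes STING (1.58 ± 0.26), shares close to those of all genes.

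A longer list of 35 further type I or III induced genes was also divided, with 21 lower and 6 higher. Helz2 (-2.78 ± 0.33), the antiviral helicase Mov10 (-2.98 ± 0.42) and the ubiquitin ligase Trim25 (-1.98 ± 0.25) had the smallest adjusted p of those that fell. The 6 that rose were Ifi44l, Ifi204, Ifitm1, Ifitm2, Ifitm3 and Slfn5. Ifitm1, a membrane protein that blocks viral entry, was at 29.0, 42.0 and 40.5 CPM in set 1 and 17.4, 38.8 and 35.9 CPM in set 2, against 6.09, 5.42 and 11.6 CPM in WT cecum (2.12 ± 0.33, edgeR adjusted p = 2.97e-05). Of 13 genes that respond to interferon-gamma 3 fell, among them Irf8 (-1.73 ± 0.18), a share below that of all genes called lower (26.2%).

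Markers of other cells moved in the same comparison, in which 26.2% of all genes were called lower and 26.9% higher. Counts such as 2 of 7 or 3 of 9 are close to those shares and are no result about those cells. Neutrophil markers rose in 6 of 7 cases, among them S100a9 (7.67 ± 1.45), and their summed level was 76.5 to 341 CPM in Cdx2-/- cecum, against 15.3 to 17.9 CPM in WT cecum. Macrophage and dendritic cell markers rose in 7 of 13 cases (523 to 935 CPM, against 154 to 397 CPM in WT cecum), and fibroblast markers in 5 of 6 (1330.1 to 2598 CPM, against 420.0 to 1114 CPM). Epithelial markers fell in 5 of 8 cases and rose in 1 (7223 to 17161 CPM, against 15016 to 25543 CPM in WT cecum). Markers of intraepithelial lymphocytes and NK cells fell in 3 of 9, T cell markers rose in 1 and fell in 2 of 10, and those of plasmacytoid dendritic cells, known as producers of type I interferon, rose in 2 and fell in 2 of the 7 tested of 8 listed. Mast cell markers rose in 5 of 7 cases (53.2 to 382 CPM, against 16.9 to 64.7 CPM in WT cecum) and B and plasma cell markers in 3 of 8 (354 to 1818 CPM, against 214 to 627 CPM). Gastric markers rose in 4 and fell in 1 of 9 cases (2327 to 24069 CPM, against 4.83 to 1071 CPM in WT cecum), and squamous keratinocyte markers rose in 3 of 6 (10.4 to 41.1 CPM, against 1.23 to 4.29 CPM). Markers of endothelium rose in 2 of 5 and those of enteric nerve and glia in 2 of 7, and smooth muscle markers were at 1547 to 3348 CPM, against 1403 to 4387 CPM in WT cecum. No defining marker of these lists was at 0 in all libraries of either group. The part of these cells in the level of the interferon response genes was not tested.

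**Figure D5:**
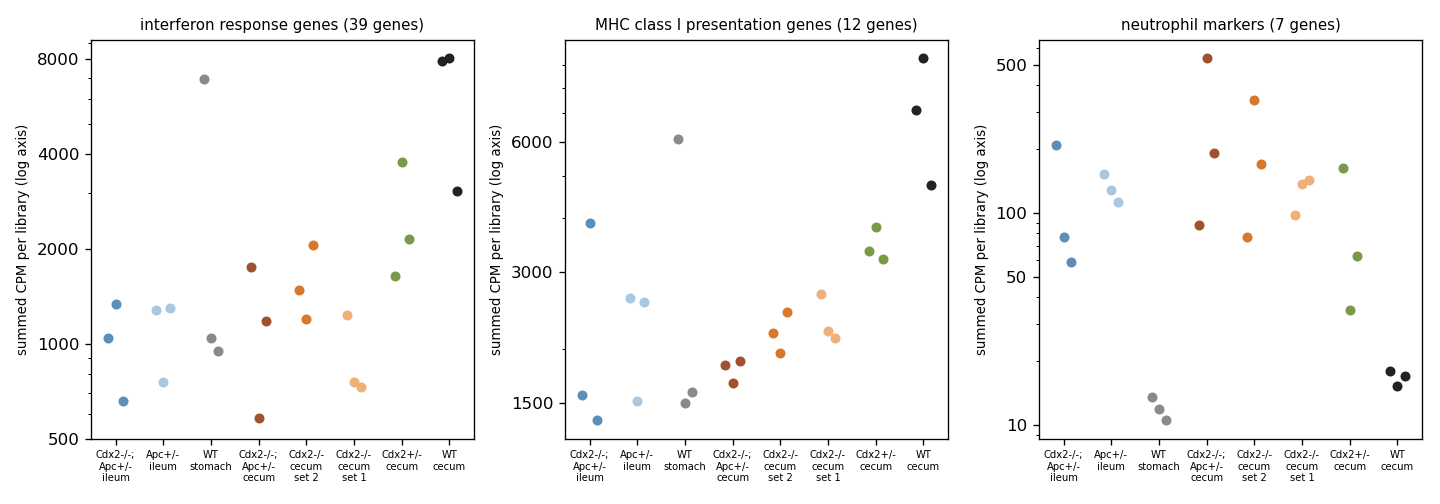
Summed CPM per library on a log axis of the 39 members, of 12 genes of MHC class I presentation and of 7 neutrophil markers, with groups from left to right. The members and the MHC class I genes are high in WT cecum and in WT stomach replicate 1. For the members, the highest Cdx2+/- cecum library (3773 CPM) lies above the lowest WT cecum library (3047 CPM). The neutrophil markers are at 10.5 to 17.9 CPM in WT stomach and WT cecum and above that in the other groups.

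The interferon genes themselves were close to the limit of detection. Over all 24 libraries Ifna1, Ifna2 and Ifna5 had no read, Ifna4 had 1, Ifnb1 3, Ifnl3 1, Ifnl2 11 and Ifng 77, with at most 11 reads of Ifng in a library. Ifnz had 45 reads and Ifnk 32, with at most 9 and 6 in a library. A count of 0 allows up to 3 reads, or 0.0326 to 0.0795 CPM (counting error only), and levels that vary between groups below that were not detectable at this depth. Ifne, an interferon known from epithelium of the reproductive tract, had the most reads, 169 in 12 libraries. It had 22, 45 and 20 reads in Cdx2+/- cecum (0.478, 0.782 and 0.366 CPM), against 0 in all 3 WT cecum libraries, at least 8.70-fold higher with 3 reads per library as the floor for WT (edgeR adjusted p = 0.00106). It had no read in any Cdx2-/- cecum library, 0, 0.0231 and 0.163 CPM in Cdx2-/-;Apc+/- cecum, and 0.158, 0.132 and 0.455 CPM in WT stomach.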

How the data were processed

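Total RNA was extracted with Trizol and made into TruSeq mRNA v2 libraries, per the labels' protocols, a kit that does not mark strand. The authors deposited raw read counts per gene, 1 table per library, made with CASAVA, TopHat2 2.0.11 and HTSeq 0.5.3p3 on GRCm38, per the submitters' processing notes. Strand setting, counting options and annotation release: not given in the sources used here. The closing rows of each table name no gene and were left out. Of all counts in a library's table, no feature was 6.62% to 10.4%, ambiguous 2.00% to 3.44% and alignment not unique 17.3% to 30.0%.

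The 39 members and the other gene lists were chosen with earlier results of these data known. Genes were filtered with filterByExpr and scaled by TMM, and all 24 libraries entered 1 quasi-likelihood fit by group in edgeR 4.0.16 (limma 3.58.1, R 4.3.3), with p-values adjusted by the Benjamini-Hochberg method over 20502 genes and a threshold of 0.05. Log2 CPM used a prior count of 2. Cdx2-/- cecum was the mean of both sets. Members given in full were the 2 with the smallest adjusted p in each role for Cdx2-/- against WT cecum, plus those called against the direction of most. Of other lists up to 3 genes were to be named by adjusted p, and further ones were chosen after their values were seen. The fit was tested on simulated data. Alternatives were other scalings, filters, a fit of the compared groups alone, a replicate block, DESeq2 1.42.0, summing set 1 replicates 2 and 3, and leaving out each library. Reads of close paralogs (Oas1a and Oas1g, Ifit3 and Ifit3b, the Gbp genes) are uncertain. Promoter windows were searched on both strands for the core of the interferon-stimulated response element. A component of the signalling pathway is not reported here.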

Additional observations from a re-analysis of the deposited data

Results flagged for a closer look

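The following 10 members differed between tissues in the test of the difference itself, the Cdx2-/-;Apc+/- minus WT difference in the cecum less the Cdx2-/-;Apc+/- minus Apc+/- difference in the ileum, each lower on the log2 scale in edgeR's quasi-likelihood test. Among the transcription factors these were Irf1 (-2.22 ± 0.59, adjusted p = 0.00703), Irf7 (-4.37 ± 1.28, 0.0129) and Irf9 (-1.34 ± 0.45, 0.0277). The sensor Ifih1 was at -2.48 ± 0.77 (0.0180). Of the OAS family, Oas1a was at -2.71 ± 0.87 (0.0209), Oas3 at -4.28 ± 1.55 (0.0389) and Oasl1 at -2.35 ± 0.83 (0.0346). Dtx3l was at -2.04 ± 0.75 (0.0397), Ifi27 at -2.10 ± 0.53 (0.00523) and Ifi35 at -1.86 ± 0.67 (0.0368). The members called lower were 25.6% of the 39, not far above the 18.3% of all genes called lower (16.4% higher). The count fell to 4 without WT cecum replicate 2 or Apc+/- ileum replicate 2, and to 5 with total gene read scaling. Tissue, the Apc allele of the control group and the Cdx2 level of the ileum libraries go together in this contrast and cannot be told apart.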

How the results depend on the processing

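Scaling by total gene reads moved the median of all genes by up to 0.61 on the log2 scale and gave 1 member higher in set 1 against WT cecum, 8 lower in set 2 against WT, 3 lower in Cdx2+/- against WT, 2 higher in Cdx2-/- against Cdx2+/- and 5 lower in the interaction. No filter on low counts gave 3 lower in Cdx2+/- against WT. Fitting only the compared groups gave 2 higher in set 2 against WT, 5 higher in set 2 against set 1, 19 lower in Cdx2+/- against WT, 3 higher and 17 lower in Cdx2-/- against Cdx2+/-, 2 lower in Cdx2-/-;Apc+/- against Cdx2-/- cecum, 0 lower in ileum against cecum, and 0 higher and 3 lower in stomach against WT cecum. DESeq2 gave 1 higher in set 2 against set 1 and 16 lower in the interaction. One mismatch in the promoter letters gave 27 genes. In Cdx2-/- against WT cecum, total gene read scaling lost the calls of Ddx58, Eif2ak2, Ifit3b and Ifi27, upper quartile scaling and summing set 1 replicates 2 and 3 each lost that of Ifit3b (-2.18 in both), and a fit of the compared groups alone added Mx2, Bst2, Gbp2, Gbp7 and Trim30a. The cause of these changes was not tested.

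With single libraries left out, Cdx2-/- against WT had 0 to 1 members higher and 25 to 29 lower, set 1 against WT 0 to 1 higher and 23 to 31 lower, and set 2 against WT 0 to 1 higher and 6 to 21 lower. Cdx2+/- against WT had 1 to 10 lower, Cdx2-/- against Cdx2+/- 0 to 1 higher and 2 to 9 lower, and Cdx2-/-;Apc+/- cecum against WT 0 to 1 higher and 16 to 26 lower. Ileum against cecum had 0 to 1 lower, Apc+/- ileum against WT 22 to 29 lower, stomach against WT cecum 0 to 3 higher and 4 to 31 lower, and the interaction 4 to 16 lower. Without stomach replicate 1 the sign turned for Mx2 (-3.03; highest without another library 0.72), Bst2 (-1.77; 1.41), Gbp3 (-0.37; 2.43), Ifi44 (-2.89; 2.32) and Trim30a (-2.57; 1.03).

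With the replicate number as a block, set 1 against WT had 1 member higher and stomach against WT cecum 1. Same-numbered libraries correlated in their deviations from group means with a median of 0.02 (-0.30 to 0.33, 63 pairs). Libraries with different numbers had a median of -0.02 (-0.32 to 0.27, 126 pairs). Values over 0.1 were found in 13 of 63 and 17 of 126 pairs. A median pooled over groups cannot exclude pairing between particular groups, so whether the numbers pair libraries is not settled here.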

Other observations

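Genes of MHC class I presentation, which respond to both type I interferon and interferon-gamma, fell together in Cdx2-/- cecum, with 12 of 12 lower than in WT cecum in edgeR's quasi-likelihood test and a median log2 difference of -1.63, where 26.2% of all genes were called lower. H2-K1, a classical heavy chain, was at 578, 756 and 719 CPM in set 1 and 339.7, 278 and 336 CPM in set 2, against 2398, 3172 and 1469 CPM in WT cecum (-2.33 ± 0.39, adjusted p = 5.33e-05). The proteasome activator Psme2 was at 109.5, 75.6 and 74.2 CPM in set 1 and 74.0, 65.7 and 94.4 CPM in set 2, against 255, 319 and 157 CPM in WT cecum (-1.57 ± 0.23, adjusted p = 1.07e-05). Cdx2-/-;Apc+/- cecum had 10 of 12 lower than WT cecum, against 26.1% of all genes. Cdx2+/- cecum had 2 of 12 lower, a share no higher than the 17.3% of all genes.

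Ifi44l was at 0.794, 0.681 and 0.807 CPM in set 1 and 2.98, 3.21 and 1.78 CPM in set 2, against 0.0265, 0 and 0 CPM in WT cecum.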
